A study of Homo sapiens with 6 samples.

Results

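This account covers 5 genes of 54261 gene symbols in the deposited count table: EMP1, EMP2 and EMP3, which encode the epithelial membrane proteins, PMP22, which encodes peripheral myelin protein 22, and TGM2, which encodes transglutaminase 2. Rows were taken by gene symbol, and all 5 symbols were found. The data are RNA sequencing counts from 6 libraries of the established human bladder cancer cell line T24. The 3 control libraries (T24-NC) came from cells with the negative control lentivirus HBLV-ZsGreen-PURO, and the 3 knockdown libraries (T24-shRNA2) from cells with a lentiviral short hairpin RNA against MTHFD2, the mitochondrial folate enzyme. Both groups carried the ZsGreen and puromycin resistance cassette and had been selected with puromycin. The libraries hold 1 of the 3 hairpins that the treatment protocol names, and the series text calls the same cells a knockout. Replicates carry the numbers 1 to 3 in either group, and no label states that they were grown separately. The p-values below therefore reflect only how far these libraries differ, which could be technical variation. The 5 genes were chosen with results of this same contrast known. Their differences are therefore given as descriptions with a standard error and no test.

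EMP1, EMP2, EMP3 and PMP22 form a small family of proteins that cross the membrane 4 times and are related to the claudins. PMP22 is a component of compact myelin in Schwann cells and is also known as a gene induced in growth-arrested fibroblasts, while the EMP proteins are found in many epithelia and other cells and have been tied to adhesion, integrin traffic and caveolae. Transglutaminase 2 crosslinks proteins in the presence of calcium, binds guanine nucleotides, and at the cell surface binds fibronectin and integrins. Retinoic acid, TGF-beta and NF-kB signalling are known to raise TGM2 in many cell types.

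Library totals ran from 17801990 to 19978392 counts. At that depth a gene with no count could still lie at up to 3 counts, or 0.149 to 0.171 CPM, from counting error alone. MTHFD2 itself was counted 3241, 3613 and 3417 times in controls, against 538, 667 and 686 times after knockdown. Summed over 14 bladder epithelial markers, the level was 2110 to 2520 CPM in the controls and 1000 to 1320 CPM after knockdown. KRT8 was at 825 ± 68.5 CPM in the controls (SD, n = 3) and 343 ± 51.7 CPM after knockdown. The sum came mostly from KRT8, KRT18 and KRT7. Of 6 tested genes of that list 2 fell, KRT8 and KRT18, and 1 rose, UPK1A (from 0.412 ± 0.0681 to 1.38 ± 0.529 CPM). KRT5, TP63 and UPK3A stayed at or below 3 counts in every library. KRT19, EPCAM, UPK2, GATA3 and CDH1 were also too low to be tested, with group means of 0.0689 to 0.408 CPM. Of 14 fibroblast markers, 8 were tested and 5 rose (COL1A1, COL1A2, COL3A1, DCN and SPARC) by edgeR's quasi-likelihood test (adjusted p under 0.05). By that test 17.3% of all tested genes were called, 9.71% higher and 7.58% lower. The summed level of the 14 was 25.0 to 32.4 CPM in the controls and 78.7, 48.5 and 67.7 CPM in knockdown replicates 1, 2 and 3. FBN1, which was not called, made up the larger part of the control sums, and without it the sums were 7.92 to 10.7 CPM and 53.4, 13.5 and 44.5 CPM. Since these are bulk libraries, fewer cells of a type and less RNA per cell cannot be told apart.

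EMP1 and TGM2 were lower in all 3 knockdown libraries, by nearly the same factor, while EMP2, EMP3 and PMP22 overlapped between the groups. EMP1 was 2.45-fold and TGM2 2.49-fold lower after knockdown. EMP2 and PMP22 were each 1.1-fold higher on average and EMP3 was 1.13-fold lower, each with groups that overlapped. Groups without overlap were seen for 2 of the 5 genes, both lower after knockdown, and for 39.1% of the 13896 tested genes (19.0% lower and 20.1% higher). That count describes genes picked from this contrast.

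**Figure D1:**
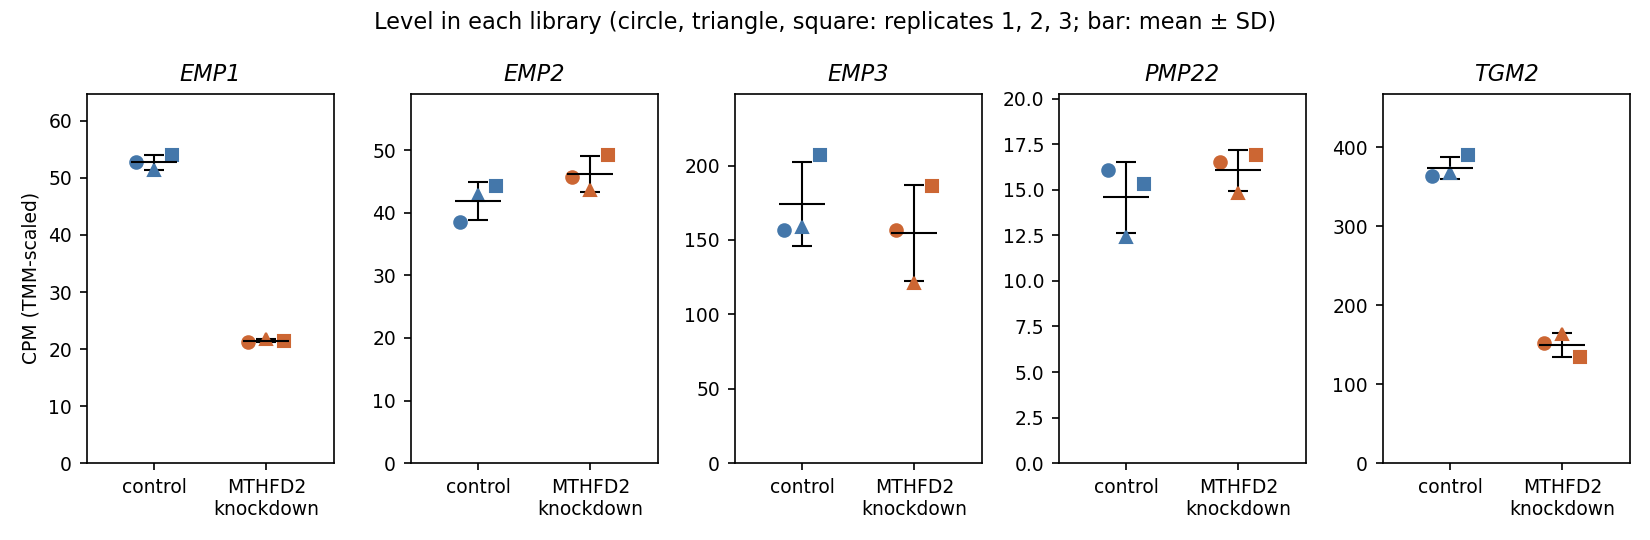
Level of each gene in CPM (y axis, from 0, a scale of its own per panel) in the control and MTHFD2 knockdown libraries; points are libraries and bars are the mean ± SD of 3. EMP1 went from 52.7 to 21.5 CPM and TGM2 from 374 to 150 CPM with no overlap, while the points of EMP2, EMP3 and PMP22 overlap.

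EMP1 (ENSG00000134531.9) lies on GRCh38 chromosome 12 from 13196716 to 13219939 on the plus strand and encodes a membrane protein first found in squamous epithelium. It held 927, 988 and 1016 counts in control replicates 1, 2 and 3 and 426, 433 and 400 in knockdown replicates 1, 2 and 3. In CPM these were 52.8, 51.4 and 54.0 against 21.2, 21.8 and 21.4. Every control library was thus above every knockdown library, and the libraries within each group lay very close together. The means were 52.7 ± 1.30 and 21.5 ± 0.327 CPM (SD, n = 3), which leaves 40.7% of the control level. The log2 fold change was -1.30 ± 0.10 (SE), and 0.576% of tested genes had a lower one. The coefficient of variation was 2.47% in the controls and 1.52% in the knockdown libraries, below the 3.2% and 4.88% that counting error alone gives at these counts.

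The promoter windows of EMP1 and of its relative EMP2 are shown, and no link between their letters and the levels was tested. RefSeq promoter windows (GRCh38.p14, 250 bases before to 50 after the start) matched 4 of the 5 genes, in 7 windows. TGM2 was not among those matched. Capitals mark TGANTCA in EMP1 and GGGCGG, the GC box, in EMP2, each searched on both strands. TGANTCA is a looser pattern that takes in the AP-1 site TGAGTCA. The GC box of EMP1 is left in lower case. The EMP1 window lies at chr12:13196476-13196775 on the plus strand and the EMP2 window at chr16:10580549-10580848 on the minus strand.
EMP1: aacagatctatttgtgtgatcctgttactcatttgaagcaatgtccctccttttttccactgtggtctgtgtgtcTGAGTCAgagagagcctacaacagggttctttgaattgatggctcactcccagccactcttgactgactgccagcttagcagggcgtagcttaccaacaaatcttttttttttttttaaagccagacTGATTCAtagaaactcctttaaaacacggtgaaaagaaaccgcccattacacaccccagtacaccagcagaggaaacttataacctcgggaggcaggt
EMP2: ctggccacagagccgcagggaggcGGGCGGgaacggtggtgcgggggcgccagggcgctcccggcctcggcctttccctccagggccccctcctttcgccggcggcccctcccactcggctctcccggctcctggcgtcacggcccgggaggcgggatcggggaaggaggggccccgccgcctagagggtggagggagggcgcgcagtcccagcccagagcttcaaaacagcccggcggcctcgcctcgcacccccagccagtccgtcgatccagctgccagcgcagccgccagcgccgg
TGANTCA occurred at 2 places in EMP1 and in none of the other 6 windows. It read TGAGTCA beginning 175 bases before the start and TGATTCA beginning 48 bases before it. Of 35116 windows of this length, 7.71% held at least 1 such match and 0.515% held at least 2. GC content was 44.3% in the EMP1 window and 77.0% in the EMP2 window, where the median over all windows was 58.7%. TATAAA was found only in 1 of the 2 EMP3 windows, beginning 224 bases before its start and overlapping a match on the other strand, and in 11.5% of all windows. GGGCGG was found in windows of all 4 genes and in 45.0% of all windows. Such matches describe the letters and do not show that a factor binds there.

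TGM2 (ENSG00000198959.11) lies on chromosome 20 from 38127387 to 38166578 on the minus strand and encodes the tissue transglutaminase. It was the most deeply counted of the 5, with 6387, 7063 and 7345 counts in control replicates 1, 2 and 3. The knockdown libraries held 3060, 3261 and 2507 counts. The levels were 364, 367 and 390 CPM in the controls and 152, 164 and 134 CPM after knockdown, so the lowest control lay far above the highest knockdown library. The means were 374 ± 14.2 and 150 ± 15.1 CPM (SD, n = 3), which leaves 40.2% of the control level. The log2 fold change was -1.31 ± 0.11 (SE), and 0.533% of tested genes had a lower one. Among the knockdown libraries, replicate 3 was lowest and replicate 2 highest.

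The last 394 bases of TGM2 overlap exons of RPRD1B, a gene on the opposite strand, and the strand setting of the counting is not given in the sources used here. RPRD1B, which encodes a protein that binds RNA polymerase II, was at 88.3 ± 3.27 CPM in the controls and 86.4 ± 2.91 CPM after knockdown (SD, n = 3), a log2 fold change of -0.03 ± 0.10 (SE) at an edgeR adjusted p of 0.843. With library totals alone as the scaling that value was 0.05.

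EMP1 and TGM2 also had the most similar pattern over the 6 libraries. Likeness was measured as the root mean square difference of log2 CPM after centring each gene on its mean, over 6 libraries that share the group difference, among the 10572 genes whose mean log2 CPM was 2 or more. The difference between EMP1 and TGM2 was 0.0832, with Pearson's r = 0.992. By Pearson's r, EPHB2 was closer to EMP1 than TGM2 was (r = 0.994). The ranks below are by the root mean square difference. Each was nearer to the other than any of the 10572 genes was. Both were chosen with this contrast known and fell by nearly the same factor, which such a rank largely restates. Any link between them was not tested. The next nearest to EMP1 were EPHB2, an Eph receptor kinase (0.0932), the adhesion molecule gene ICAM1 (0.111) and the kinase gene SGK1 (0.133). Those of TGM2 were ICAM1 (0.121), PXDC1 (0.122) and SERPINB8, a protease inhibitor (0.144). ICAM1 stood on both lists: it was at 98.7, 102 and 111 CPM in the controls and 47.5, 39.0 and 39.3 CPM after knockdown. The ratio of EMP1 to TGM2 counts within a library was 0.145, 0.14 and 0.138 in the controls and 0.139, 0.133 and 0.16 after knockdown. The range of this ratio was wider after knockdown than in the controls. Its likeness between the groups restates the near equal fold changes of the 2 genes. From its group mean in log2 CPM, EMP1 deviated by 0.003, -0.037 and 0.034 in control replicates 1, 2 and 3. TGM2 deviated there by -0.037, -0.025 and 0.062. In knockdown replicates 1, 2 and 3 the deviations were -0.02, 0.023 and -0.003 for EMP1 and 0.023, 0.134 and -0.157 for TGM2.

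**Figure D2:**
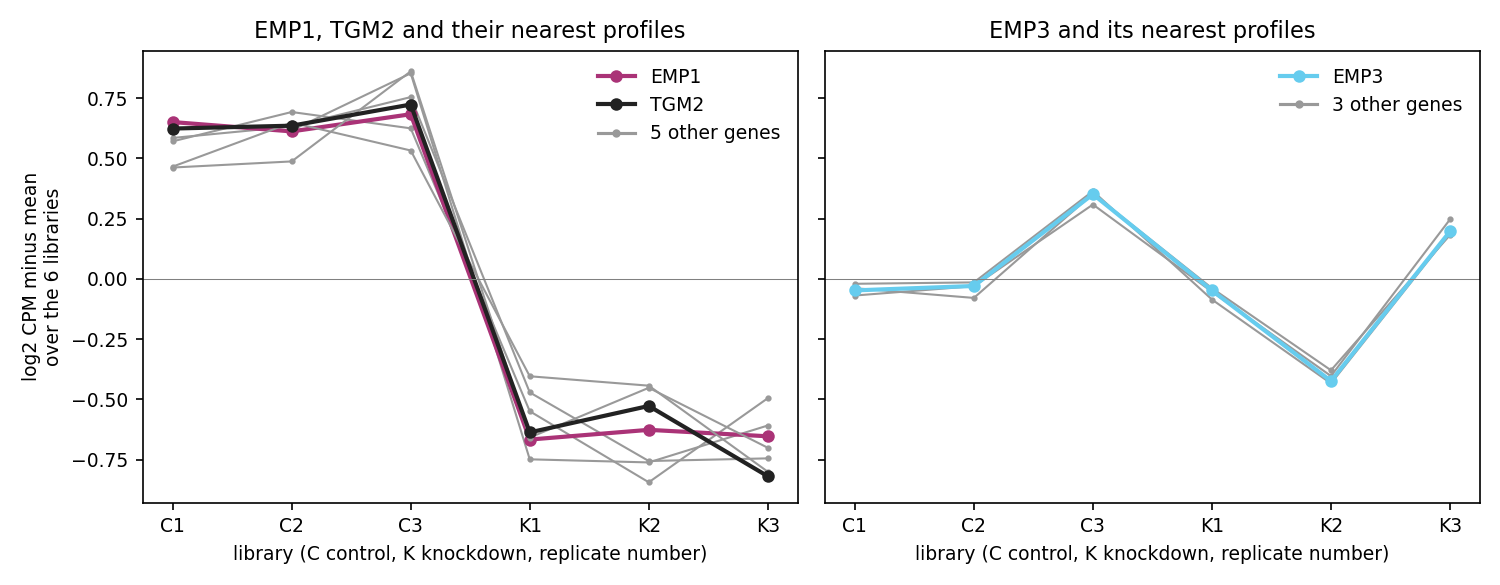
Log2 CPM minus the gene's mean over the 6 libraries (y axis) in control (C) and knockdown (K) libraries by replicate number (x axis, with lines only to guide the eye); thick lines are EMP1, TGM2 and EMP3, grey lines their nearest genes. EMP1 and TGM2 separate by group, whereas EMP3 is highest in control replicate 3 and lowest in knockdown replicate 2.

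EMP2 (ENSG00000213853.9; chromosome 16, 10528422 to 10580698, minus strand) encodes the family member best known for its tie to integrins and caveolae. It was at 38.5, 42.8 and 44.3 CPM in control replicates 1, 2 and 3 and 45.7, 43.6 and 49.2 CPM in knockdown replicates 1, 2 and 3, from 676 to 919 counts. Knockdown replicate 2 lay below control replicate 3, so the groups overlapped. The log2 fold change was 0.14 ± 0.11 (SE). The ratio of EMP1 to EMP2 counts within a library went from 1.37, 1.2 and 1.22 in the controls to 0.464, 0.501 and 0.435 after knockdown. EMP1 was thus the more counted of this pair in every control library and the less counted in every knockdown library.

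PMP22 (ENSG00000109099.14; chromosome 17, 15229777 to 15265357, minus strand) was the least counted, with 239 to 332 counts per library. It was at 16.1, 12.4 and 15.3 CPM in control replicates 1, 2 and 3 and 16.5, 14.8 and 16.9 CPM in knockdown replicates 1, 2 and 3. The knockdown libraries lay within or just above the range of the controls. The log2 fold change was 0.14 ± 0.14 (SE), and it was 0.02 without control replicate 2, the lowest library. Counting error alone gives a coefficient of variation of 6.1% for PMP22 in the controls, where 13.3% was observed. Of 9 Schwann cell markers other than PMP22, 5 stayed at or below 3 counts in every library, among them SOX10 and S100B with no count. NGFR, a neurotrophin receptor gene and the only one called of 3 tested, rose from 4, 6 and 7 to 13, 17 and 17 counts (edgeR adjusted p = 0.0393). The summed level of the 9 genes, 36.4 to 39.5 CPM in the controls and 38.3 to 48.1 CPM after knockdown, came mostly from MBP and PRX.

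EMP3 (ENSG00000142227.10; chromosome 19, 48321509 to 48330553, plus strand) varied more between replicates than between groups. It was at 157, 159 and 207 CPM in control replicates 1, 2 and 3 and 157, 121 and 186 CPM in knockdown replicates 1, 2 and 3. Control replicate 3 and knockdown replicate 3 were high and knockdown replicate 2 was low. The coefficient of variation was 16.3% in the controls and 20.9% after knockdown, against 1.77% and 1.84% from counting error alone at 2399 to 3895 counts. The log2 fold change was -0.17 ± 0.16 (SE). Dropping control replicate 3 or knockdown replicate 2 brought it to -0.03, and dropping knockdown replicate 3 to -0.33. With knockdown replicate 2 alone it was -0.53.

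EMP3 has the shortest and most GC-rich transcript of the 5, with a longest transcript of 876 bases at 59.5% GC. The other 4 had longest transcripts of 1861 to 5921 bases at 42.6% to 55.1% GC. A trend over all genes in GC content and length was fitted in each library. At EMP3, and relative to its group mean, it was -0.048, -0.122 and 0.171 on the log2 scale in control replicates 1, 2 and 3 and 0.076, -0.206 and 0.13 in knockdown replicates 1, 2 and 3. EMP3 itself deviated from its group mean by -0.141, -0.119 and 0.261 and by 0.046, -0.332 and 0.285. The signs matched in all 6 libraries, and the trend was the smaller of the pair in 4 of them. After these trends were removed EMP3 stood at 150, 160 and 170 against 160, 150 and 182 CPM, and its log2 fold change was 0.03 ± 0.09 (SE), so its sign depends on this step. The genes with the nearest profiles were RPL36 (0.0224) and MRPL24 (0.0281), which encode ribosomal proteins of the cytosol and the mitochondrion, and the pseudogene RPL7P1 (0.0298), whose reads may be shared with its parent gene. Their longest transcripts had 907, 990 and 747 bases. For EMP2 the nearest were RPL22P1, MAGED2 and CCDC115 (0.0203 to 0.0251) and for PMP22 the noncoding TMCC1-AS1, the helicase gene HELQ and LINC00960 (0.0281 to 0.0464).

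Per kilobase of exon, EMP3 and TGM2 were far above the other 3 genes. In the controls the levels were 104 ± 17.0 CPM per kilobase for EMP3 and 46.5 ± 1.77 for TGM2 (SD, n = 3). EMP1 followed at 6.73 ± 0.166, EMP2 at 4.81 ± 0.346 and PMP22 at 4.54 ± 0.606 CPM per kilobase. EMP2 and PMP22 did not differ beyond their spread, while EMP1 lay above both in every control library. In the knockdown libraries EMP1 was the lowest of the 5 at 2.74 ± 0.0417 CPM per kilobase, below PMP22 at 4.99 ± 0.34 and EMP2 at 5.29 ± 0.329. TGM2 stood at 18.7 ± 1.88 and EMP3 at 92.7 ± 19.4 CPM per kilobase. Of the summed level of the 4 family genes per kilobase, EMP1 made up 5.64% ± 0.662 in the controls and 2.66% ± 0.559 after knockdown. EMP3 made up 86.5% ± 1.44 and 87.4% ± 1.87. With the longest transcript as the length, the levels were higher (8.9 CPM per kilobase for EMP1 and 199 for EMP3 in the controls) and the order in each group was the same.

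The 5 fibroblast markers that rose summed to 6.38, 8.21 and 6.96 CPM in control replicates 1, 2 and 3. In knockdown replicates 1, 2 and 3 they summed to 42.8, 10.3 and 35.6 CPM. COL1A2 in knockdown replicate 2 (1.56 CPM) lay within its control range of 1.37 to 1.66 CPM. Among the knockdown libraries each of the 5 was lowest in replicate 2. FBN1, in contrast, was highest in replicate 2. EMP1 and TGM2 are also made by fibroblasts. EMP1 was at 21.2, 21.8 and 21.4 CPM in knockdown replicates 1, 2 and 3 and TGM2 at 152, 164 and 134 CPM. With knockdown replicate 2 alone against the 3 controls, the log2 fold change was -1.28 for EMP1 and -1.19 for TGM2, 0.05 for EMP2 and 0.01 for PMP22. TGM2 is abundant in endothelium. Of 10 endothelial markers 6, KDR, TEK, TIE1, EMCN, CLDN5 and ERG, stayed at or below 3 counts in every library. The summed level of the 10 was 17.8 to 21.5 CPM in the controls and 16.5 to 21.6 CPM after knockdown, mostly from ESAM. CDH5 fell from 27, 33 and 24 to 16, 15 and 8 counts (edgeR adjusted p = 0.0333), and its part in the TGM2 values was not tested. The 10 leukocyte markers summed to 2.88 to 4.73 CPM over the 6 libraries.

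Around the 5 genes, the nearest protein-coding gene on the left of EMP1 was higher after knockdown. FAM234B, 54194 bases away on the same strand, rose from 16.2 ± 1.07 to 27.4 ± 1.57 CPM (SD, n = 3; log2 fold change 0.76 ± 0.12, SE; edgeR adjusted p = 0.00215). GRIN2B on the other side had no count. Beside TGM2, TTI1, a partner of mTOR and related kinases, was at 83.5 ± 5.75 and 84.8 ± 9.24 CPM (SD, n = 3; edgeR adjusted p = 0.904), and KIAA1755 had at most 4 counts. Neither ATF7IP2 beside EMP2 (log2 fold change 0.32; edgeR adjusted p = 0.215) nor ZNF114 (-0.48; 0.256) and TMEM143 (-0.05; 0.877) beside EMP3 passed the test. TEKT5, HS3ST3B1 and TEKT3 were too low to be tested. CCDC114, whose exons overlap EMP3 by 217 bases on the opposite strand, held 1, 2 and 2 counts in the controls and 6, 8 and 10 after knockdown, too few to be tested. MIR4731 within PMP22 had none. Antisense AC027277.1 and sense intronic AC027277.2 at EMP2, and AC005703.6 and AC005703.3 at PMP22, are annotated as overlapping genes and have no row of these names in the table.

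Among other members of the wider superfamily, a few expressed genes changed. This list and those below, 7 in all, were chosen with earlier results of these data known. Their shares are therefore set beside that of all tested genes only as a description. Of 27 relatives, all in the table, 14 had no count and 9 were tested: 2 rose, 1 fell and 6 did not pass, where 17.3% of all tested genes passed (9.71% higher and 7.58% lower). TMEM47, a junction-associated relative, rose from 31.5 ± 3.78 to 52.6 ± 6.58 CPM (SD, n = 3; log2 fold change 0.74 ± 0.13, SE; edgeR adjusted p = 0.00388). PERP, a desmosomal protein that p53 induces, rose from 133 ± 2.27 to 179 ± 37.9 CPM (log2 fold change 0.43; edgeR adjusted p = 0.0472). LHFP, the older symbol of LHFPL6, fell from 23.6 ± 0.812 to 15.2 ± 2.06 CPM (-0.64 ± 0.13, SE; edgeR adjusted p = 0.00767). Leaving out any library but knockdown replicate 1 ended the call of PERP (edgeR adjusted p between 0.0526 and 0.146). The list's median log2 fold change was 0.09, beside 0.01 over all tested genes.

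TGM2 was the only transglutaminase with a mean above 1 CPM in either group. Of the 8 other family genes, 5 had no count, and TGM7 and F13A1 had at most 2 counts in a library. TGM1, the keratinocyte enzyme, held 10, 20 and 24 counts in the controls and 17, 28 and 10 after knockdown, a log2 fold change of -0.05 ± 0.42 (SE; edgeR adjusted p = 0.952) whose sign differed between settings. Both groups spanned almost the same range.

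Of 16 tested partners and regulators of transglutaminase 2, from a list of 19, 4 fell and 2 rose, 37.5% beside 17.3% of all tested genes. FN1, the fibronectin gene, fell from 320 ± 45.8 to 169 ± 29 CPM (SD, n = 3; log2 fold change -0.92 ± 0.14, SE; edgeR adjusted p = 0.00217). ADGRG1, an adhesion receptor that binds transglutaminase 2, fell from 15.9 ± 0.485 to 9.30 ± 0.682 CPM (-0.77 ± 0.13; edgeR adjusted p = 0.00309). The heparan sulphate proteoglycan gene SDC4 and NFKBIA, which encodes an inhibitor of NF-kB, were the other genes that fell. LRP1, the endocytic receptor that clears transglutaminase 2 from the surface, rose from 10.8 ± 1.53 to 28.1 ± 7.20 CPM (1.38 ± 0.18; edgeR adjusted p = 0.000861). With knockdown replicate 2 alone, where the 5 fibroblast markers that rose were lowest of the knockdown libraries, LRP1 was at 1.74 and FN1 at -0.74. PLCD1, a phospholipase that transglutaminase 2 can activate, rose by 0.63 ± 0.20 on the log2 scale. PLCD1 was not called when any library but knockdown replicate 1 was dropped (edgeR adjusted p between 0.0824 and 0.154). The most abundant integrin partner, ITGB1, was at 781 ± 97.4 and 849 ± 97.2 CPM and did not pass (edgeR adjusted p = 0.531). The median of the list was -0.03.

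Of 15 tested partners of the EMP proteins and PMP22, from a list of 18, 4 fell and none rose, 26.7% beside 17.3% of all tested genes. PTRF, the older symbol of the caveolar coat gene CAVIN1, fell from 805 ± 55.4 to 483 ± 63.2 CPM (SD, n = 3; log2 fold change -0.74 ± 0.12, SE; edgeR adjusted p = 0.00272). SYVN1, a ubiquitin ligase of the endoplasmic reticulum, the integrin gene ITGA6 and the caveolin gene CAV1 fell by 0.42, 0.40 and 0.35 on the log2 scale. The edgeR test lost SYVN1 in 5, CAV1 in 4 and ITGA6 in 3 of the 6 fits that left out a library. The count of 4 became 1 when either control replicate 1 or control replicate 2 was dropped, and 2 when control replicate 3 or knockdown replicate 2 was. The share of all genes called in those 4 fits was 7.03%, 11.8%, 6.92% and 10.4%. The count was 1 with library totals alone (17.0% of all genes) and 7 with knockdown replicate 2 alone (30.0%). CD44, a hyaluronan receptor, and the chaperone gene CANX were more abundant still and did not pass. P2RX7, an ATP-gated channel that the EMP proteins bind, had at most 2 counts in a library. The median was -0.06.

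Among retinoid genes, 2 of 8 tested rose and none fell, from a list of 19. That is 25.0%, beside 17.3% of all tested genes. DHRS3, a retinal reductase that retinoic acid induces, rose from 7.60 ± 0.350 to 17.4 ± 4.86 CPM (SD, n = 3; log2 fold change 1.19 ± 0.19, SE; edgeR adjusted p = 0.00273). CRABP2, which carries retinoic acid, rose from 2.56 ± 0.266 to 4.16 ± 0.505 CPM (edgeR adjusted p = 0.0395). Without any 1 of the 3 control libraries, or without knockdown replicate 2 or 3, CRABP2 was no longer called (edgeR adjusted p between 0.07 and 0.153) and the count was 1. The median was 0.21.

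Of 15 TGF-beta receptors and response genes, all tested, 3 rose and 2 fell, 33.3% beside 17.3% of all tested genes. CTGF, which encodes a matricellular protein, fell from 127 ± 1.29 to 94.0 ± 7.74 CPM (SD, n = 3; log2 fold change -0.43 ± 0.10, SE; edgeR adjusted p = 0.0141). Dropping control replicate 1 or control replicate 3 ended that call (edgeR adjusted p = 0.0622 and 0.0527). The receptor genes TGFBR1 and TGFBR2 rose by 0.58 ± 0.10 and 0.45 ± 0.11 on the log2 scale, and SKIL, a SMAD corepressor, rose by 0.46 ± 0.14. The call of SKIL was lost in 5 and that of TGFBR2 in 3 of the 6 fits without a library. Dropping control replicate 1 or control replicate 3 brought the count of 5 to 2, where 7.03% and 6.92% of all genes were called. It was 8 without knockdown replicate 1 (18.4% of all genes), 3 without knockdown replicate 2 (10.4%) and 9 with that library alone (30.0%). The median was -0.19.

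Of the genes named, as PMP22 once was, for growth arrest, 5 of 8 were tested, of which 1 rose and 1 fell (40.0%, beside 17.3% of all tested genes). GAS6, a ligand of the TAM receptor kinases, fell from 60.0 ± 4.26 to 26.5 ± 3.77 CPM (SD, n = 3; log2 fold change -1.18 ± 0.13, SE; edgeR adjusted p = 0.000263). GAS2L3, a cytoskeletal linker, rose by 0.42 ± 0.13 on the log2 scale, a call that ended, leaving a count of 1, when any control library or knockdown replicate 2 was dropped (edgeR adjusted p between 0.0875 and 0.191). It was 4 with knockdown replicate 2 alone, where 30.0% of all genes were called. The other 3 did not pass, and the median was -0.17.

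**Figure D3:**
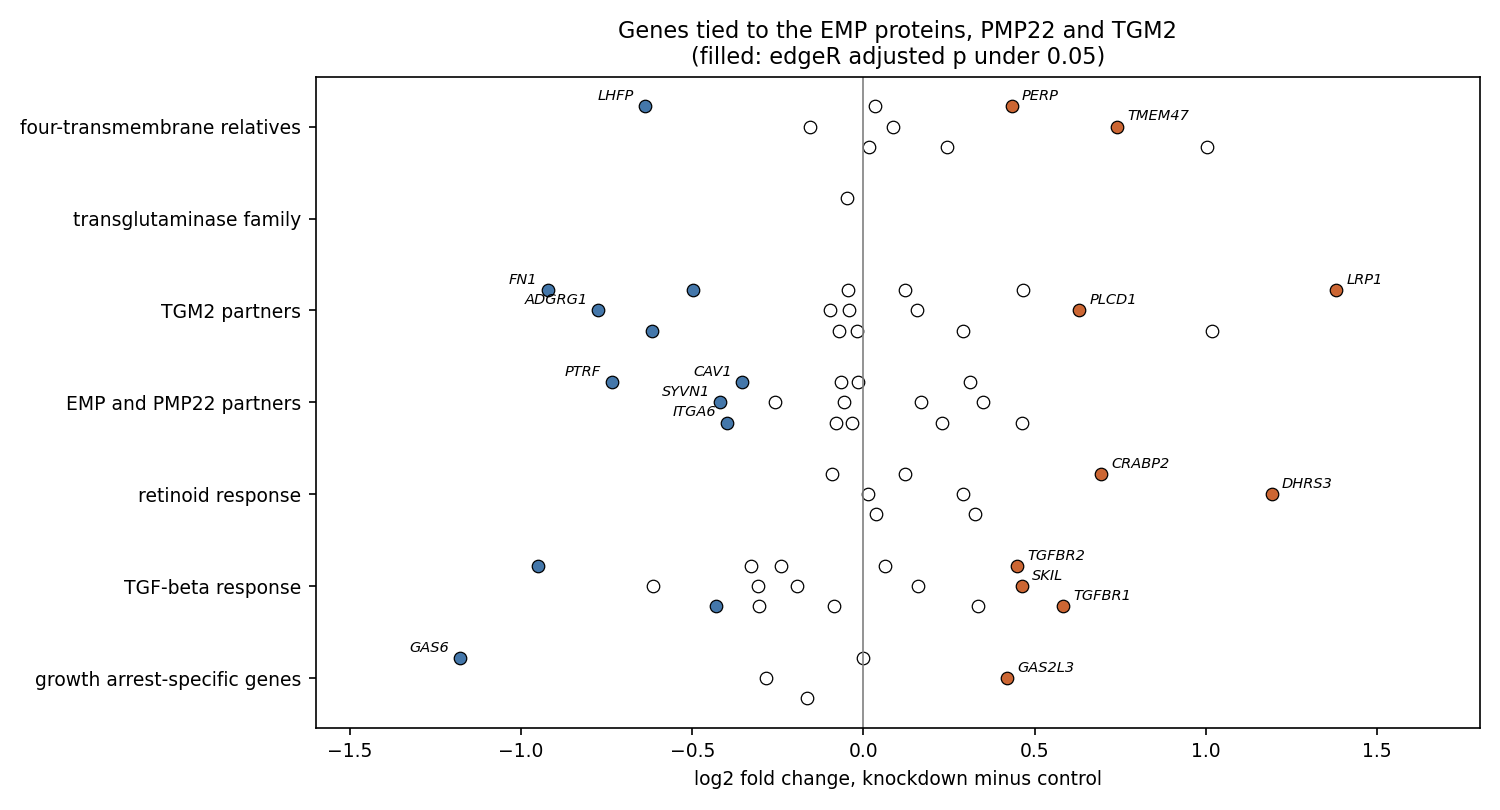
Log2 fold change, knockdown minus control (x axis), of each tested gene of the 7 lists (y axis; vertical offsets only separate points); filled points passed edgeR's test at an adjusted p under 0.05, and those named in the text by rule are labelled. LRP1 at 1.38 and GAS6 at -1.18 are the filled points farthest out in each direction.

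The differences of EMP1 and TGM2 kept their direction and most of their size under each of the 15 alternatives. EMP1 lay between -1.44 and -1.22 and TGM2 between -1.39 and -1.19 on the log2 scale. EMP2 and PMP22 stayed above 0 in all 15, from 0.05 to 0.22 and from 0.01 to 0.21. EMP3 ran from -0.53 to 0.03.

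**Figure D4:**
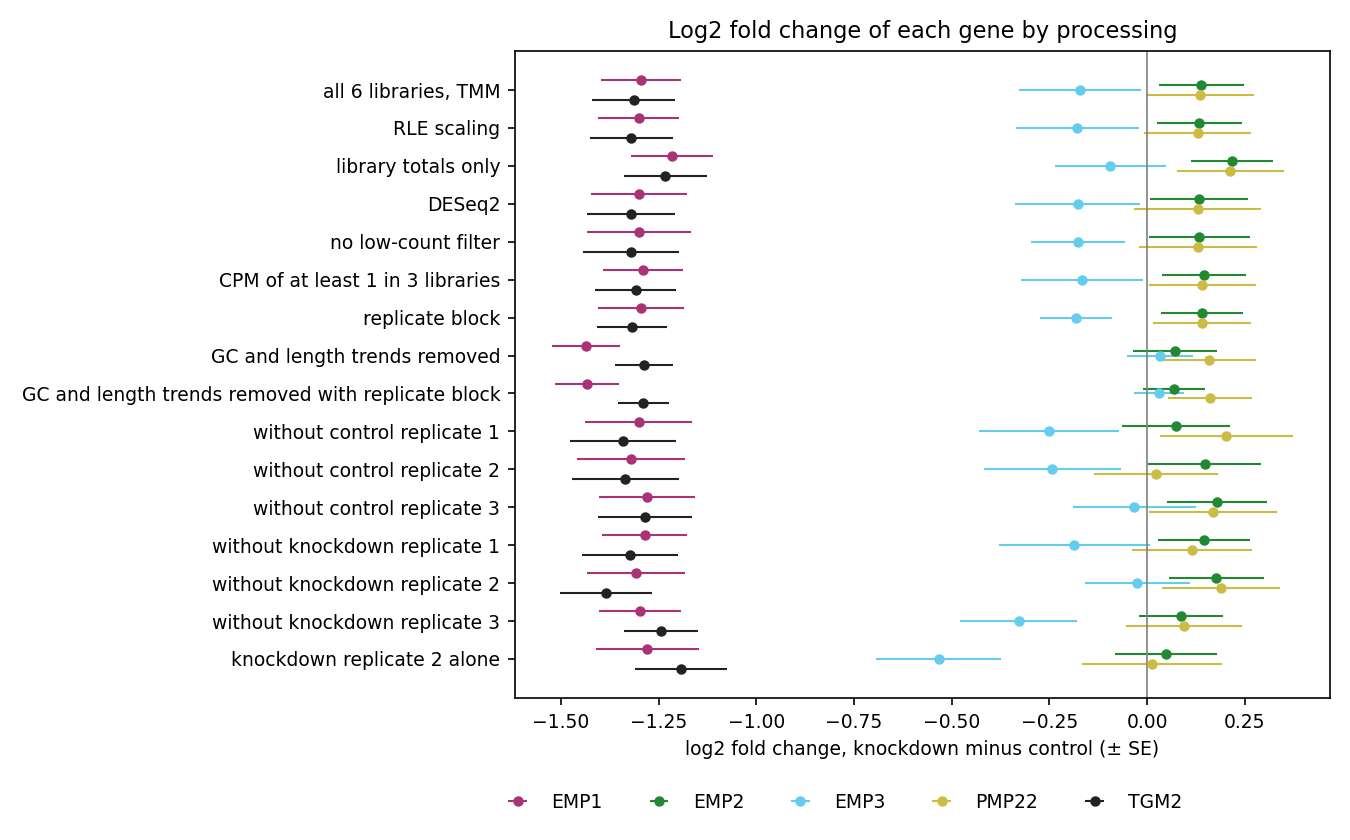
Log2 fold change ± SE of the 5 genes (x axis) under each way of processing the counts (y axis; the first is the fit of all 6 libraries with TMM scaling). EMP1 and TGM2 lie near -1.3 throughout, and EMP3 is the only one of the 5 whose points fall on both sides of 0. Bars of EMP2 and PMP22 also reach across 0 in some fits.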

How the data were processed

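The authors' deposited table gives raw counts for each gene symbol, with 1 column per library (6 in all). Per the submitters' processing notes, HISAT2 2.0.4 and GRCh38 were used. No counting tool, annotation or strand setting is given in the sources used here. Genes that passed filterByExpr (13896) were compared between the groups by the quasi-likelihood test of edgeR 4.0.16 in R 4.3.3 after TMM scaling. Adjusted p-values are Benjamini-Hochberg values over all of them, called under 0.05. Standard errors were derived from the fold change and its F statistic. CPM uses TMM-scaled totals, and log2 CPM a prior count of 2. GENCODE 29 (GRCh38) supplied positions, lengths and GC content, and RefSeq the promoters. Libraries of the same group differed by more than counting error (chi-square 2.56 to 31.6 times its degrees of freedom), so each counted as 1 sample. The procedures were first tested on simulated data. There the main fit recovered 54% of 1.5-fold and 76% of 2-fold changes, and 6.59% of its calls were false. For DESeq2 the values were 58%, 74% and 10.3%. Whether these rates hold for the 6 measured libraries was not tested.

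The 5 genes, the 7 gene lists and the 5 marker lists were chosen with earlier results of these data known. Named besides the 5 genes are overlapping and flanking genes, up to 4 called genes of each list by size with both directions present (the 2 most abundant tested ones where none was called), and the 3 nearest profiles of each gene. SDC4, NFKBIA, CTGF, ITGB1, CD44, CANX, P2RX7 and markers were named after their values were seen. Alternatives were RLE scaling, library totals alone, DESeq2 1.42.0, other low-count filters, a threshold of 0.01, the replicate number as a block, removal of GC content and length trends, each library left out, and knockdown replicate 2 alone. No set test was made. Some genes that the rule would name are not reported here.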

Additional observations from a re-analysis of the deposited data

How the results depend on the processing

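Over all genes, 2402 were called, 1349 higher and 1053 lower after knockdown. The count was 749 at a threshold of 0.01, 4432 with knockdown replicate 2 alone and 986 to 2645 when a library was left out. Dropping control replicate 1 gave 1003, control replicate 3 gave 986 and knockdown replicate 2 gave 1469. With library totals alone the split was 1664 higher and 702 lower. Of the differences of the 5 genes, those of EMP2 and PMP22 moved by less than their replicate SD in all 15 alternatives. EMP1 was at -1.22 with library totals alone and -1.44 without GC content and length trends, and lay between -1.32 and -1.28 when a library was left out. TGM2 was at -1.19 and EMP3 at -0.53 with knockdown replicate 2 alone. Without GC content and length trends EMP3 reversed to 0.0329.

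Deviations of same-numbered libraries of the 2 groups correlated at r = -0.02, 0.297 and 0.353 for numbers 1, 2 and 3. For control replicates 2 and 3 the same-numbered knockdown library was the best match. For control replicate 1 the best match was knockdown replicate 2 (r = 0.165). Whether the numbers pair the libraries cannot be told from these values. With the replicate number as a replicate block 5062 genes were called, 36.4% of those tested. Among them were 7 partners of the EMP proteins and PMP22 and 9 TGF-beta genes. With the replicate block and without GC content and length trends the counts were 5337 (42.5% of those tested), 8 and 9. In that fit 4 retinoid genes were called, EMP1 was at -1.43 and EMP3 at 0.0309.

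Among the lists, partners of the EMP proteins and PMP22 numbered 4 called genes, 1 with library totals alone, 1 at a threshold of 0.01, 7 with knockdown replicate 2 alone and 1 to 4 without a library. Retinoid genes numbered 2, with 1 by DESeq2, 1 at a threshold of 0.01, 4 without GC content and length trends and 1 to 2 without a library. TGF-beta genes numbered 5, with 2 at a threshold of 0.01, 9 with knockdown replicate 2 alone and 2 to 8 without a library. Growth arrest-specific genes numbered 2, with 1 under RLE scaling, 1 without GC content and length trends, 1 at a threshold of 0.01, 4 with knockdown replicate 2 alone and 1 to 2 without a library. The lists of relatives, transglutaminases and TGM2 partners stayed within 1.5 times their counts. The share of all tested genes called also moved with the setting. It was 17.3% in the main fit, 17.0% with library totals alone, 17.4% under RLE scaling and 19.4% by DESeq2. Without GC content and length trends it was 26.9%, and without a library 6.92% to 18.6%. At a threshold of 0.01, 749 of 13896 genes were called. Of 20 called genes that the naming rule picked from lists or as neighbours, 11 kept their call and direction in all alternatives that tested them and 9 lost the call in at least 1, and none reversed.

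Uncalled genes near 0 changed sign. TGM1 was at 0.0385 with library totals alone, 0.11 and, with the block, 0.10 without GC content and length trends, 0.54 with knockdown replicate 2 alone, and -0.48 to 0.22 without a library. TMEM143 was at 0.0285, 0.10, 0.10 and 0.0542 under these same 4 settings and -0.12 to 0.0524 without a library. RPRD1B was at 0.0466 with library totals alone and 0.0132 with knockdown replicate 2 alone. TTI1 lay between -0.0443 and 0.10 without a library. The cause of the differences between settings was not tested. Genes below about 0.171 CPM could not be measured at this depth.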
